A study of Mus musculus with 6 samples.

Results

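Serpins are protease inhibitors that present a flexible loop as bait. A protease that cuts the loop is trapped in a covalent complex with the serpin and inactivated. Most serpins are secreted, but clade B serpins lack a classical signal peptide and act mainly inside cells, where in leukocytes they guard the cytosol against proteases leaking from the cell's own granules. The transcripts described here belong to 8 serpin genes of blood cells, 6 of clade B (Serpinb1a, Serpinb2, Serpinb6a, Serpinb6b, Serpinb8 and Serpinb9) and 2 of the clade A Serpina3 cluster (Serpina3f and Serpina3g). They are 8 of 33924 genes listed in the count table, which holds 59 other genes whose symbol starts with Serpin. The 8 genes were selected by symbol, with their Stag2KO against Stag2WT differences in these same libraries already known, so those differences, and any call of them in the fit over all genes, are given as a description that supports nothing.

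RNA was sequenced from mouse bone marrow depleted of cells bearing mature lineage markers, 3 libraries with the genotype Stag2KO and 3 with Stag2WT. Mature cells had been removed with antibodies on magnetic beads. The product of Stag2 belongs to cohesin, a ring-shaped complex that holds DNA in loops. Beyond genotype and tissue the labels say little: the sources used here do not give how the gene was deleted, in which cells, or the strain and age of the mice. Whether each library stands for its own mouse is likewise unstated, and p-values then measure only the spread between these samples, which may be technical.

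The libraries held 29435651 to 37722325 reads assigned to genes. Stag2 itself, the check on the labels, stood at 179.6 ± 9.25 CPM in Stag2KO (CPM is a gene's share of a library's assigned reads, scaled by TMM so that libraries can be compared), against 330.2 ± 7.18 (SD, n = 3 each) without the deletion. Its log2 fold change was -0.88 (SE 0.06; edgeR adjusted p = 0.000278). Its groups did not overlap, and the exact two-sided permutation p of 0.1 is the smallest that 3 against 3 libraries allow. Reads in no annotated gene took 11.1% to 12.8% of the table total in Stag2KO and 8.81% to 10.1% in Stag2WT, a difference that runs with genotype and cannot be told apart from it. Stem and progenitor genes were present in every library, with a summed level over 8 markers of 1322 to 1418 CPM in Stag2KO and 1153 to 1230 in Stag2WT, without overlap. Of these 8, 3 were called higher (Gata2, Cd34 and Hlf), beside 10.7% of all tested genes. Genes of maturing neutrophils were present too, at 5669 to 10016 CPM over 10 markers.

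The bait loop sets which protease a serpin can trap, and the loops of these 8 genes differ from one another. Shown are the bases that encode the stretch from the hinge glycine to the conserved end of the loop region, read from GENCODE vM21 transcripts on the build GRCm38. Each lies in a single exon and is printed 5′ to 3′ along the coding strand. Capitals mark the codon 14 codons after the hinge glycine, where the cut bond begins by the usual spacing of serpin loops. That is a counted position, not a mapped cleavage site, and the loops are not all of one length.
Serpinb1a (chr13:32842881-32842970, minus strand): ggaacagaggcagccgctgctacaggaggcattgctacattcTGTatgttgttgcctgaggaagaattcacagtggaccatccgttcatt
Serpinb2 (chr1:107524789-107524878, plus strand): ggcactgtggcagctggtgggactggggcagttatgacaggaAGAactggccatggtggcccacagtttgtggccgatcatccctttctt
Serpinb6a (chr13:33918104-33918193, minus strand): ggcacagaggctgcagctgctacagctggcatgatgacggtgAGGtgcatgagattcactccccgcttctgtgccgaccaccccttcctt
Serpinb6b (chr13:32978207-32978290, plus strand): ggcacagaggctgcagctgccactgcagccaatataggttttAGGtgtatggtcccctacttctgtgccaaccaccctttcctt
Serpinb8 (chr1:107607173-107607262, plus strand): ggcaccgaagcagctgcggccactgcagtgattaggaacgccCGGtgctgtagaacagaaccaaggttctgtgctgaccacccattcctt
Serpinb9 (chr13:33015699-33015785, plus strand): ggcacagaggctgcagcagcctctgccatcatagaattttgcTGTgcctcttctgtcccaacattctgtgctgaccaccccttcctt
Serpina3f (chr12:104220245-104220340, plus strand): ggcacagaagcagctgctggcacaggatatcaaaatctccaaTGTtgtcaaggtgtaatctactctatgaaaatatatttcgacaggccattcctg
Serpina3g (chr12:104241072-104241164, plus strand): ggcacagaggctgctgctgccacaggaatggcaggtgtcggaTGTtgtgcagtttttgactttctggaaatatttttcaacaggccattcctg

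The printed stretch spanned 28 codons in Serpinb6b, 29 in Serpinb9, 30 in Serpinb1a, Serpinb2, Serpinb6a and Serpinb8, 31 in Serpina3g and 32 in Serpina3f. The capital codon was TGT in 4 genes, Serpinb1a, Serpinb9, Serpina3f and Serpina3g. It was AGG in Serpinb6a and Serpinb6b, AGA in Serpinb2 and CGG in Serpinb8. The closest coding sequences were those of Serpina3f and Serpina3g, identical at 87.4% of 744 aligned bases, and those of Serpinb6a and Serpinb6b, identical at 86.3% of 1128. The annotated Serpina3g coding sequence holds 248 codons, against 445 for Serpina3f, so the first value covers only that length. Within the loop stretch the identity was 74.2% for the first pair and 78.6% for the second.

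Such copies bear on the counting, because reads that align to more than 1 place were kept out of the gene counts. The transcripts of Serpina3f and Serpina3g shared 6.33% of the 50-base windows of Serpina3g, and the longest run shared by their coding sequences was 56 bases. Serpinb6a shared 0.373% of the 50-base windows of Serpinb6b, with a longest shared coding run of 57 bases. Read length is not stated for these libraries, so the split of reads between the members of each pair is uncertain to an unknown degree. Stretches shared with other serpin copies or pseudogenes were not looked for, so any reads left out because of them are unknown.

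Serpinb2, the plasminogen activator inhibitor best known from monocytes and macrophages, showed the widest difference between the genotypes among the 8 genes. It stood at 33.6, 21.3 and 20.3 CPM in Stag2KO replicates 1, 2 and 3 and at 5.09, 2.77 and 3.51 CPM in Stag2WT replicates 1, 2 and 3. The lowest Stag2KO library was therefore well above the highest Stag2WT library, and Stag2KO replicate 1 was the highest of all. The fitted log2 fold change was 2.72 (SE 0.29), or 25.1 ± 7.37 CPM against 3.79 ± 1.19 (SD, n = 3 each). Without Stag2KO replicate 1 it was 2.46. Beside this, 6 eosinophil markers summed to 2721 to 3929 CPM in Stag2KO and 1061 to 1568 in Stag2WT, and 10 monocyte and macrophage markers to 1191 to 1223 and 1835 to 2005. No marker of either list was at 0 in all libraries, and their part in the Serpinb2 difference was not tested.

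Serpinb1a inhibits the serine proteases of neutrophil granules, elastase, cathepsin G and proteinase 3, and was the most abundant of the 8 genes. Its level was 200.6, 182.3 and 191.5 CPM in the Stag2KO libraries and 248.5, 242.9 and 245.8 CPM in the Stag2WT libraries. All Stag2KO values lay below all Stag2WT values, and the SD of the Stag2WT libraries was 1.16% of their mean, where read counting alone gives 1.08%. The group means were 191.5 ± 9.18 and 245.7 ± 2.84 CPM (SD, n = 3 each), a log2 fold change of -0.36 (SE 0.06).

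The Serpinb6 pair went in opposite directions. Serpinb6a, an inhibitor of cathepsin G found in many tissues, read 51.0, 34.7 and 40.9 CPM in Stag2KO, against 73.7, 48.5 and 43.8 in Stag2WT. Those groups overlapped, and replicate 1 was the highest library within each group. The fitted log2 fold change of Serpinb6a was -0.39 (SE 0.23), and without Stag2WT replicate 1 it was -0.13, less than its SE.

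Serpinb6b, a mouse copy of the same family whose product inhibits granzyme A, had 20.7, 22.8 and 24.2 CPM in Stag2KO, against 14.996, 14.2 and 16.8 in Stag2WT. Every Stag2KO library was above every Stag2WT library, with group means of 22.6 ± 1.74 and 15.3 ± 1.34 CPM (SD, n = 3 each). The log2 fold change was 0.56 (SE 0.11). The ratio of Serpinb6a to Serpinb6b reads within a library, which no scaling between libraries can alter, was 1.53 to 2.46 in Stag2KO and 2.6 to 4.91 in Stag2WT.

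Serpinb9 protects cytotoxic and other leukocytes by inhibiting granzyme B. It was measured at 19.4, 22.5 and 24.5 CPM in Stag2KO and 18.7, 16.4 and 18.8 CPM in Stag2WT. The groups did not overlap, but the lowest Stag2KO library exceeded the highest Stag2WT library by little. The log2 fold change was 0.30 (SE 0.11).

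Serpinb8, an inhibitor of furin-like proteases in human cells, was the least abundant of the 8. It had 70, 38 and 44 reads in Stag2KO and 44, 29 and 14 reads in Stag2WT, or 2.4, 1.04 and 1.15 CPM against 1.22, 0.828 and 0.41 CPM. The groups overlapped. The log2 fold change of 0.87 (SE 0.46) was 0.41 without Stag2KO replicate 1, the library with the most reads. The spread between libraries was 49.4% of the mean in Stag2KO, where read counting alone gives 14.05%.

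The Serpina3 pair was higher in Stag2KO to differing degrees. Serpina3f was at 9.73, 14.7 and 14.3 CPM in Stag2KO, against 7.51, 6.05 and 4.97 in Stag2WT, without overlap, giving a log2 fold change of 1.06 (SE 0.21). Serpina3g, whose product (Spi2A) inhibits cathepsins in the cytosol of myeloid and lymphoid cells, was at 60.9, 81.5 and 84.1 CPM in Stag2KO, against 56.6, 41.3 and 61.2 in Stag2WT. Stag2KO replicate 1 lay inside the Stag2WT range for Serpina3g, and the log2 fold change was 0.51 (SE 0.18). Among the Stag2KO libraries, replicate 1 was the lowest for Serpina3f, Serpina3g, Serpinb6b and Serpinb9 and the highest for Serpinb1a, Serpinb2, Serpinb6a and Serpinb8.

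**Figure D1:**
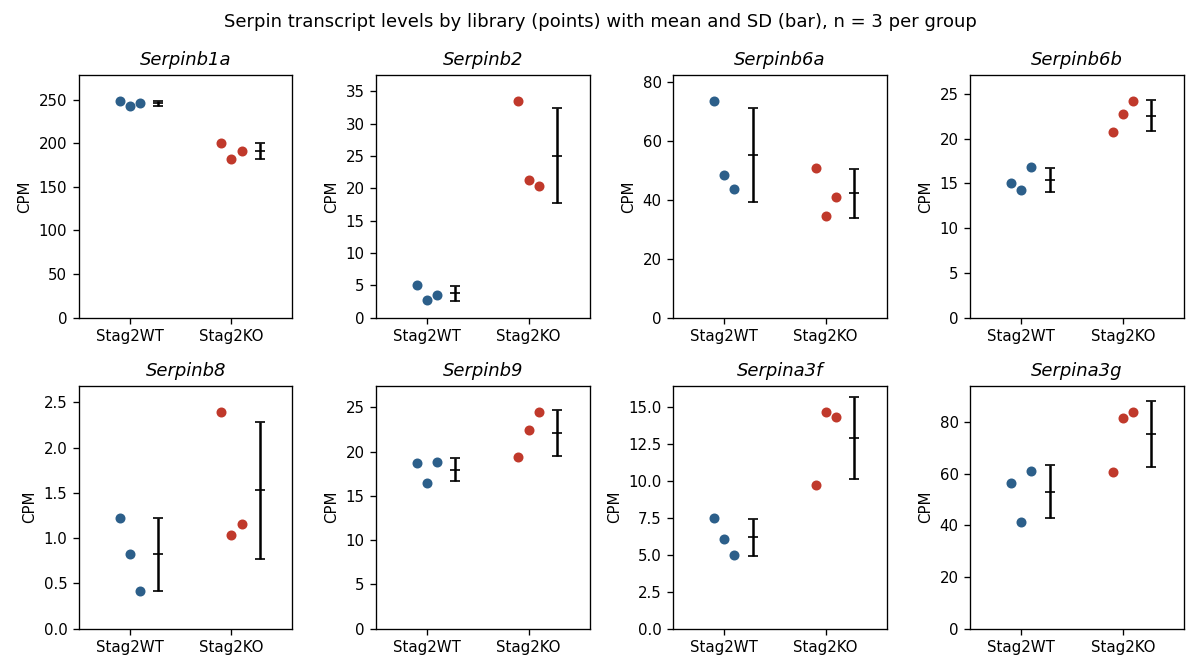
Level of each of the 8 serpin genes in CPM (linear axis from 0) in every library, Stag2WT in blue and Stag2KO in red, with the mean and SD of each group (n = 3) beside the points. Serpinb2 ranges from 2.77 to 5.09 CPM in Stag2WT and from 20.3 to 33.6 in Stag2KO, while the groups overlap for Serpinb6a, Serpinb8 and Serpina3g.

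The groups did not overlap for 5 of the 8 genes, where 43.5% of all 15708 tested genes showed no overlap. In edgeR's quasi-likelihood test with adjustment over all 15708 genes, 3 of the 8 were called higher in Stag2KO (Serpinb2, Serpinb6b and Serpina3f), against 10.7% of all tested genes, and 1 was called lower (Serpinb1a), against 10.5%. In either direction 4 of 8 were called, beside 21.2% of all tested genes. Since the genes were chosen from this comparison, nothing is read from these counts. The median log2 fold change was 0.53 over the 8 genes and 0.01 over all tested genes.

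The directions differed, and so did the make-up of the sum. The 8 genes summed to 393.4 ± 11.0 CPM in Stag2KO and 398.2 ± 26.8 CPM in Stag2WT (SD, n = 3 each). Serpinb1a made up 47.7% to 50.4% of that sum in Stag2KO and 58.3% to 65.1% in Stag2WT. Serpinb2 made up 5.06% to 8.42% in Stag2KO and 0.742% to 1.19% in Stag2WT. The 7 genes other than Serpinb1a summed to 201.9 ± 6.63 and 152.5 ± 23.96 CPM. The 8 genes accounted for 73.5% to 79.3% of the summed CPM of all serpin genes in a library.

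**Figure D2:**
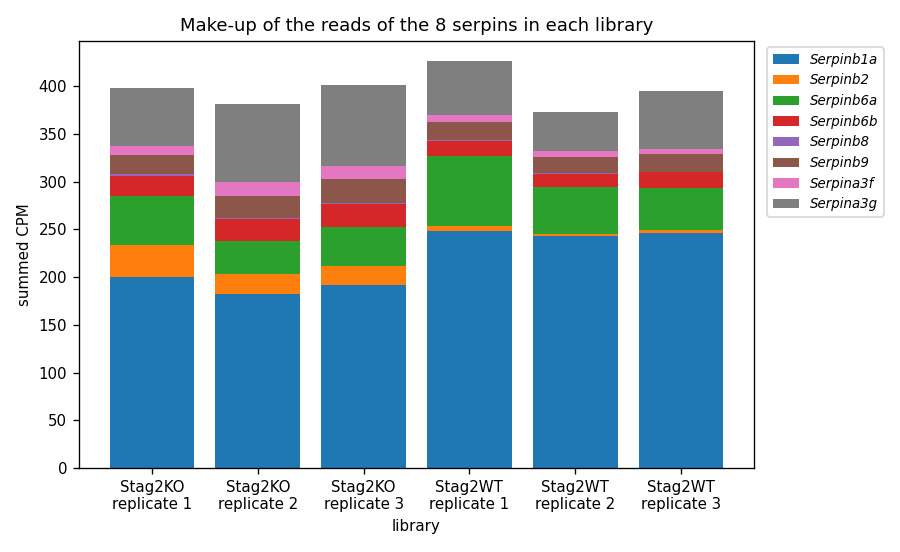
Summed CPM of the 8 serpin genes in each library, stacked by gene, from an axis that starts at 0. The bars reach 373 to 426 CPM in both genotypes, while the Serpinb1a part is smaller and the Serpinb2 part larger in the 3 Stag2KO libraries.

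Levels can be compared between genes only per length, here as CPM per kilobase of the GENCODE transcript with the longest coding sequence. That holds only if reads cover whole transcripts, and the labels do not say how these libraries were made. In Stag2WT the order was Serpinb1a (128.1 ± 1.48), Serpinb6a (36.8 ± 10.7), Serpina3g (29.4 ± 5.75), Serpinb6b (7.0 ± 0.61), Serpinb9 (5.29 ± 0.39), Serpina3f (2.8 ± 0.577), Serpinb2 (1.92 ± 0.602) and Serpinb8 (0.273 ± 0.136). Of neighbours in that order, Serpinb6a and Serpina3g overlapped between libraries, and so did Serpina3f and Serpinb2. In Stag2KO, Serpinb2 stood next after these 3 most abundant genes at 12.7 ± 3.74 CPM per kilobase, overlapping Serpinb6b at 10.3 ± 0.795, and Serpina3g (41.9 ± 7.06) stood above Serpinb6a (28.1 ± 5.46) with ranges that overlapped between 33.8 and 33.9. Serpinb9 (6.51 ± 0.765) and Serpina3f (5.85 ± 1.25) overlapped there as well. The place of Serpinb6a depends on the length used. Over all its annotated exons merged, a length chosen as an alternative after the values were seen, it was at 10.2 CPM per kilobase in Stag2WT and 7.81 in Stag2KO.

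Serpinb2 and Serpinb8 lie in the clade B cluster of chromosome 1, with Serpinb10 between them in the gene order of GRCm38. Serpinb10, listed in the table under its older symbol Serpinb10-ps, had a mean of 10.7 ± 0.857 CPM with the deletion and 11.6 ± 1.46 without (SD, n = 3 each), and its log2 fold change of -0.12 (SE 0.13) was not called (edgeR adjusted p = 0.541). The ratio of Serpinb10-ps to Serpinb2 reads within a library was 0.332 to 0.555 in Stag2KO and 2.52 to 3.62 in Stag2WT, so Serpinb2 had more reads than its neighbour in every Stag2KO library and fewer in every Stag2WT library. Serpinb7, the neighbour on the other side, had 10 reads over all 6 libraries.

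On chromosome 13 lie Serpinb1a, Serpinb6b, Serpinb9 and, at the far end of the cluster, Serpinb6a. Of the other copies there, Serpinb9c, Serpinb9d, Serpinb9e, Serpinb9f and Serpinb9g had no read in any library, and Serpinb1b had 20 reads in all. Serpinb9b was called lower from a low level, a mean of 0.0712 CPM with the deletion against 0.489 without (log2 fold change -2.62, SE 0.68, adjusted p = 0.03 by edgeR), and had no read in Stag2KO replicate 1. It is named after its value was seen. The edgeR call was lost without Stag2KO replicate 1 (0.0575), 2 (0.0643) or 3 (0.0599) or Stag2WT replicate 2 (0.0548) or 3 (0.0844), and DESeq2 gave it no adjusted p. On chromosome 12, Serpina3f and Serpina3g were the only Serpina3 copies with a mean above 2 CPM.

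The promoters of Serpina3f and Serpina3g are shown because the genes are close copies, and that of Serpinb2 because its difference was the widest. The 250 bases before the first annotated start are RefSeq's, on GRCm38.p6. Of the 8 genes, 7 had an entry among these RefSeq promoters, all but Serpinb1a. Capitals mark matches, on either strand, to 6 motifs. The C/EBP motif was searched as TTGCNNAA. For AP-1 the letters were TGANTCA. For PU.1 they were GAGGAA. The STAT motif was TTCNNNGAA. GATA factors were searched as AGATAA. The interferon-type motif was GAAANNGAA.
Serpina3f (chr12:104214294-104214543, plus strand): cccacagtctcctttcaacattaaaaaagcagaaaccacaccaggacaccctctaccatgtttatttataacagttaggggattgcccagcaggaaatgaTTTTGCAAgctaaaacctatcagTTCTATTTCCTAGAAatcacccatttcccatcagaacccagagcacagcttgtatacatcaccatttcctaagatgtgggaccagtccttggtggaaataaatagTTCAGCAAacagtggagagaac
Serpina3g (chr12:104235897-104236146, plus strand): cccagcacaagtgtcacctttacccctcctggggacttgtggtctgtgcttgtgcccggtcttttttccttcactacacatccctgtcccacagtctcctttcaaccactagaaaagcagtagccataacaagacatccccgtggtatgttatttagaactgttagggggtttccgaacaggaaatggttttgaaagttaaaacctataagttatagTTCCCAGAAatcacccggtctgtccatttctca
Serpinb2 (chr1:107511173-107511422, plus strand): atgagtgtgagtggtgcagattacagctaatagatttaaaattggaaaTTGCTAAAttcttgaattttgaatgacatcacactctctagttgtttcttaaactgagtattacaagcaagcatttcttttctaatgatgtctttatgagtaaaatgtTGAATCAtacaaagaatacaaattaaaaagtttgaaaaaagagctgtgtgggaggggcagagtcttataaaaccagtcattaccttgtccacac

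Where they aligned, the Serpina3f and Serpina3g stretches were identical at 82.6% of 161 bases. The STAT motif was found in both, starting 121 bases before the Serpina3f start and 33 bases before that of Serpina3g. In Serpina3f it overlapped an interferon-type match that started 127 bases before the start, and 2 C/EBP matches lay at 150 and 22 bases. The C/EBP and interferon-type letters were not found in the Serpina3g window. Serpinb2 held a C/EBP match at 202 and an AP-1 match at 94 bases before its first start.

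Across the 300-base windows of the 7 genes, 50 bases after the start included, the STAT motif was found in 4 genes, the interferon-type motif in 3, and each of C/EBP, AP-1, PU.1 and GATA in 2. Of 32544 RefSeq promoter windows of the same length, 8.33% held the STAT motif, 8.53% the interferon-type motif, 10.8% C/EBP, 7.79% AP-1, 28.1% PU.1 and 11.2% GATA. Serpina3f, Serpinb2 and Serpinb6a have 2 annotated starts each, so their 2 windows gave more room for a match. In Serpinb6a, too, a STAT match overlapped an interferon-type match. A match is a run of letters, not a measured binding site.

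Among the 59 other serpin genes 27 had no read at all, and 15 were expressed highly enough to be tested. Of these 15, 3 were called higher (10.7% of all tested genes were), 5 lower (10.5%) and 7 not called, with a median log2 fold change of -0.54. Serpine2, whose product inhibits thrombin and urokinase outside the cell, rose from 47.5 ± 3.02 to 86.1 ± 10.9 CPM (SD, n = 3 each). Its log2 fold change was 0.86 (SE 0.10; edgeR adjusted p = 0.00167). Serpina3b, another copy of the Serpina3 cluster, rose from 0.849 ± 0.156 to 1.91 ± 0.356 CPM (1.17, edgeR adjusted p = 0.0139).

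Of the genes called lower, Serpinh1, a collagen chaperone without inhibitor activity, fell from 7.86 ± 0.855 to 3.89 ± 0.926 CPM (log2 fold change -1.01, edgeR adjusted p = 0.00976), and Serpinf1, encoding pigment epithelium-derived factor, from 20.3 ± 2.55 to 12.8 ± 1.04 CPM (-0.66, edgeR adjusted p = 0.0084). The gene of C1 inhibitor, Serping1 (-0.66, edgeR adjusted p = 0.041), and that of neuroserpin, Serpini1 (-0.60, edgeR adjusted p = 0.0237), were lower, and Serpina11 (1.39, edgeR adjusted p = 0.0298) was higher.

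Those last 3 calls depended on single libraries, as did that of Serpinb9b above. Serpina11 was not called without Stag2KO replicate 1 (0.0595), 2 (0.0613) or 3 (0.0766) or Stag2WT replicate 2 (0.098) or 3 (0.072). Serping1 was not called without Stag2KO replicate 1 (0.0822) or 2 (0.0891) or without Stag2WT replicate 1 (0.0819), 2 (0.0689) or 3 (0.107). Serpini1 was not called without Stag2KO replicate 1 (0.0652), 2 (0.072) or 3 (0.056) or Stag2WT replicate 1 (0.0669) or 2 (0.0667), all as adjusted p of edgeR. Serpina3n (-0.81) and Serpine3 (0.16) were not called.

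**Figure D3:**
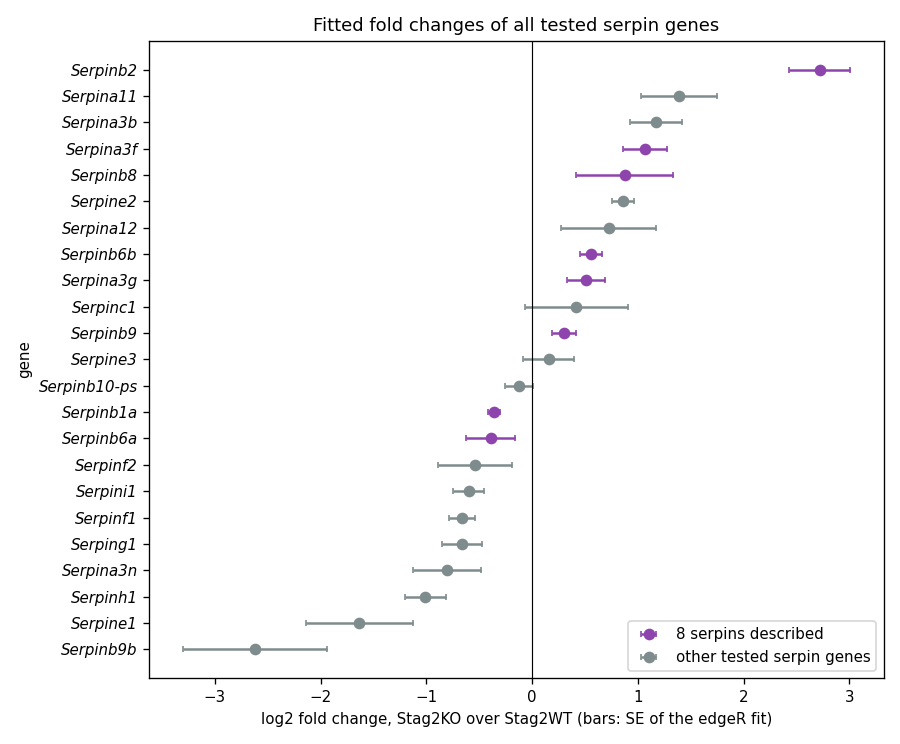
Fitted log2 fold change of Stag2KO over Stag2WT for all 23 tested serpin genes, with the SE of the edgeR fit as bars, the 8 genes described in purple and the 15 others in grey. Serpinb2 lies at 2.72 on the right end and Serpinb9b at -2.62 on the left end, with Serpinb1a at -0.36 and the shortest bar.

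Proteases and related genes on which these serpins act, or that share their cells, formed a list of 31 genes, of which 26 were tested. Of these, 6 were called higher, beside 10.7% of all tested genes, 4 lower, beside 10.5%, and 16 not called, with a median log2 fold change of -0.12. The granule proteases of neutrophil precursors rose. Elane, encoding neutrophil elastase, went from 2046 ± 149.8 to 2723 ± 367 CPM (SD, n = 3 each; 0.41, SE 0.12, adjusted p = 0.041 by edgeR), and Prtn3, encoding proteinase 3, from 1424 ± 227 to 2210 ± 379 CPM (0.63, SE 0.16, edgeR adjusted p = 0.0259). Ctsg, encoding cathepsin G, had a log2 fold change of 0.45 (edgeR adjusted p = 0.0479), and Prss57, a further serine protease of neutrophil granules, rose from 72.9 ± 4.83 to 163.4 ± 24.4 CPM (1.16, edgeR adjusted p = 0.000835).

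Ctsc, whose product activates these proteases by trimming them, fell from 124.9 ± 13.8 to 71.1 ± 11.0 CPM (-0.81, edgeR adjusted p = 0.004855). The calls of Prss57 and Ctsc held in each alternative run. Elane was not called when Stag2KO replicate 1 (0.121) or 3 (0.116) was left out, nor without Stag2WT replicate 1 (0.108), 2 (0.0625) or 3 (0.0905). Ctsg was not called without each of the same libraries (0.136, 0.1, 0.111, 0.117 and 0.0518), and Prtn3 was not called without Stag2KO replicate 1 (0.0716) or 3 (0.0611) or Stag2WT replicate 1 (0.0659) or 2 (0.0997), all as adjusted p of edgeR.

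Set against their inhibitor within each library, a ratio looked at after the values had been seen, there were 12.7 to 15.2 Elane reads per Serpinb1a read in Stag2KO and 7.58 to 8.97 in Stag2WT. For Prtn3 the ratio was 10.01 to 12.9 in Stag2KO and 4.86 to 6.76 in Stag2WT, and for Ctsg 5.71 to 6.76 against 2.93 to 3.98. None of these 3 ratios overlapped between the genotypes. That follows from the levels already given, so nothing further is read from it. Elane, Prtn3 and Ctsg were each higher, and Serpinb1a lower, in every Stag2KO library than in any Stag2WT library. The ratios compare reads and not protein, and are not corrected for transcript length.

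The targets of Serpinb9 and Serpinb6b were not called. Gzmb, encoding granzyme B, averaged 11.1 ± 2.42 CPM with the deletion and 7.83 ± 1.62 without (log2 fold change 0.50, edgeR adjusted p = 0.116), and Gzma, encoding granzyme A, was at 17.7 ± 6.77 and 20.6 ± 8.12 CPM (-0.21, edgeR adjusted p = 0.739). Of 5 tested genes of this group, Prf1 among them, 0 were called by edgeR, DESeq2 or limma-voom, and 1 had an unadjusted p under 0.05 by each tool. The Gzmb reads per Serpinb9 read were 0.428 to 0.536 in Stag2KO and 0.356 to 0.516 in Stag2WT, with overlap.

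The plasminogen system that Serpinb2 acts on had 0 of 4 tested genes called by edgeR, where 3 had an unadjusted p under 0.05. By limma-voom 0 were called as well, and by DESeq2 2, Plau (adjusted p = 0.0273) and Plg (0.0314), both lower. Plau, encoding urokinase, averaged 5.02 ± 0.891 CPM with the deletion and 7.37 ± 1.09 without (-0.56, edgeR adjusted p = 0.0612), and its receptor gene Plaur was at 28.8 ± 7.2 and 29.2 ± 2.38 CPM (-0.02, edgeR adjusted p = 0.944). Plg, encoding plasminogen, was at 0.964 ± 0.0667 and 2.04 ± 0.877 CPM (-1.07, edgeR adjusted p = 0.0502), and was called with median-ratio size factors (0.0487), with no filter beyond 1 read (0.029) and without Stag2WT replicate 2 (0.0214). The receptor gene Plgrkt, at 84.6 and 71.1 CPM the highest of the group with no correction for length, had a log2 fold change of 0.25 (edgeR adjusted p = 0.0597) and was called without Stag2KO replicate 1 (0.0463).

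The list of cysteine cathepsins, the class Serpina3g acts on, held 6 genes. It left out Ctsc, also a cysteine cathepsin, which is given above with the neutrophil proteases and was called lower. Where edgeR called 21.2% of all tested genes in either direction, 1 of these 6 was called, Ctsb. It fell from 774.4 ± 85.4 to 545.4 ± 83.7 CPM (-0.51, edgeR adjusted p = 0.0268), a call lost without Stag2KO replicate 1 (0.0636) or 2 (0.0633) or Stag2WT replicate 1 (0.0687) or 2 (0.0617). The other five had log2 fold changes of -0.17 (Ctsz) to -0.73 (Ctsk). Leaving out Stag2KO replicate 3 brought Ctsl (adjusted p = 0.00733) and Ctss (0.00991) under the threshold in edgeR, and leaving out Stag2KO replicate 1 did so for Ctsk (0.0409). DESeq2 with all libraries called Ctss too (0.00556).

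The basophil proteases Mcpt8 (from 639.7 ± 26.1 to 401.7 ± 19.4 CPM, -0.67, edgeR adjusted p = 0.00105) and Prss34 (from 1344 ± 44.9 to 779.8 ± 42.3 CPM, -0.79, edgeR adjusted p = 0.000833) fell. The inflammatory caspase genes Casp1 (0.38, edgeR adjusted p = 0.0194) and Casp4 (0.70, edgeR adjusted p = 0.0218) rose, while Furin (0.24, edgeR adjusted p = 0.0599) was called in 1 of the alternatives run, without Stag2WT replicate 1 (0.0452). The Casp1 call was lost without Stag2KO replicate 3 (0.0692) or Stag2WT replicate 3 (0.0514), and that of Casp4 without Stag2KO replicate 2 (0.0541) or 3 (0.0597) or Stag2WT replicate 3 (0.0502).

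**Figure D4:**
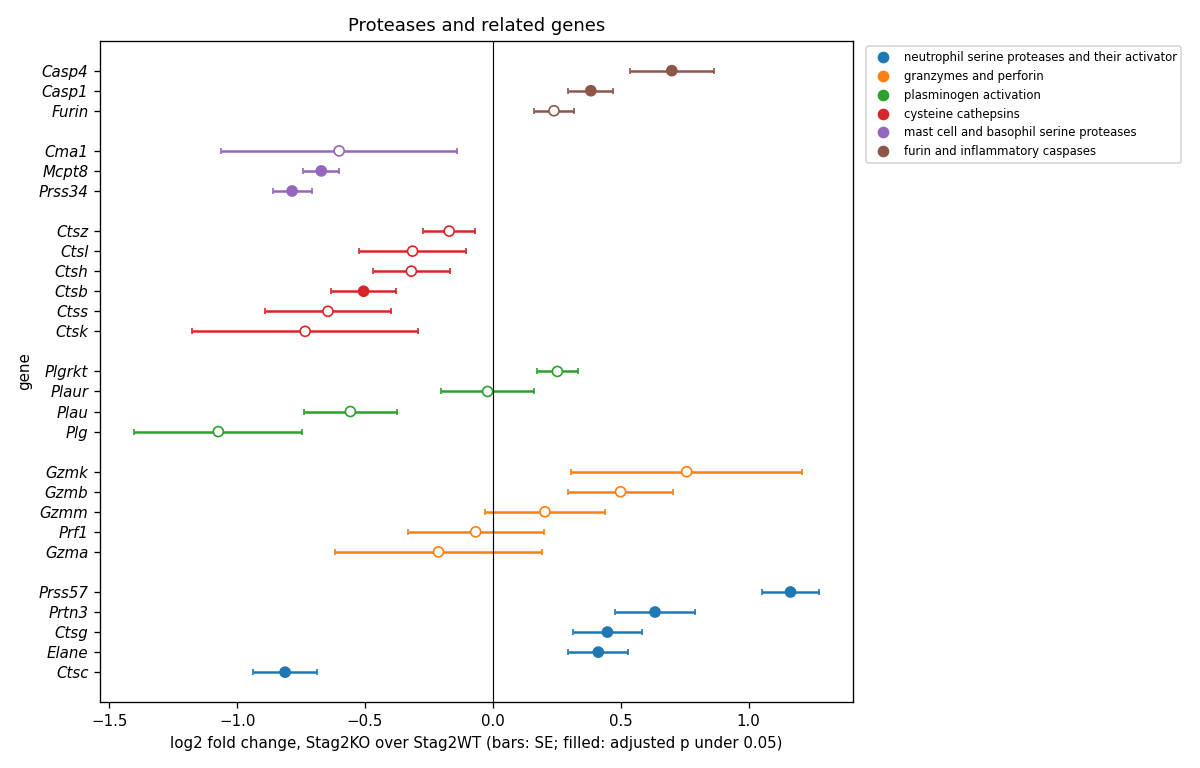
Log2 fold change of Stag2KO over Stag2WT for the 26 tested proteases and related genes, grouped by role, with the SE of the edgeR fit as bars and filled points for an adjusted p under 0.05. The 4 neutrophil serine proteases lie between 0.41 and 1.16, their activator Ctsc at -0.81, and the 6 genes listed as cysteine cathepsins between -0.73 and -0.17.

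Marker genes of several blood cell types differed between the genotypes as well, and in such mixed marrow fewer cells of a type and less RNA per cell cannot be told apart. Beside the marker counts that follow stand 10.7% of all tested genes called higher and 10.5% called lower. Of the 6 eosinophil markers, 4 were called higher (Prg2, Epx, Alox15 and Il5ra). Markers of granulocyte-monocyte precursors summed to 12757 to 15447 CPM against 8769 to 10837, with 5 of 6 called higher; 3 of the 6 are the protease genes above. Neutrophil markers overlapped, at 5865 to 10016 against 5669 to 9056 CPM, with 0 of 10 called by edgeR, DESeq2 or limma-voom and 1, 4 and 5 at an unadjusted p under 0.05.

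Lower in Stag2KO were the summed markers of monocytes and macrophages (8 of 10 called lower), of basophils and mast cells (1817 to 1925 against 2567 to 2674, 3 of 7 lower and 1 higher) and of B cells (65.2 to 76.9 against 156 to 249, 6 of 6 lower). Prss34 and Mcpt8, the protease genes above, made up most of the basophil and mast cell sum. Of its other markers, Fcer1a (log2 fold change -0.76) was called lower and Ms4a2 (0.32) higher. Cpa3 (0.20), Cd200r3 (0.14) and Cma1 (-0.60) were not called. Among monocyte and macrophage markers the widest falls were in Mrc1 (-3.38), C1qa (-2.92) and Cd163 (-2.44). Not called there were Ccr2 (0.77) and Cd68 (-0.68). The summed markers of T and natural killer cells were at 309 to 366 against 234 to 258 CPM, most of it from Nkg7, with 1 of 7 called higher and 3 lower. Nkg7 (log2 fold change 0.58) was called higher, and the T cell genes Cd3e (-1.61), Cd3g (-2.09) and Cd8a (-2.19) were called lower. Erythroid markers were at 722 to 911 against 1024 to 1753 CPM (3 of 6 lower), and megakaryocyte markers at 336 to 442 against 291 to 367 (1 of 6 higher). Some calls lay near the threshold, among them Alox15 (edgeR adjusted p = 0.0441) and Ms4a2 (0.0442). Counts in either direction also shifted with the tool. By limma-voom 3 basophil and mast cell markers were called (4 by edgeR) and 4 precursor markers (5). It called 5 eosinophil markers (4), 9 of monocytes and macrophages (8) and 4 erythroid markers (3). None of the markers was at 0 in all libraries. The part of these cell types in the serpin differences was not tested.

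**Figure D5:**
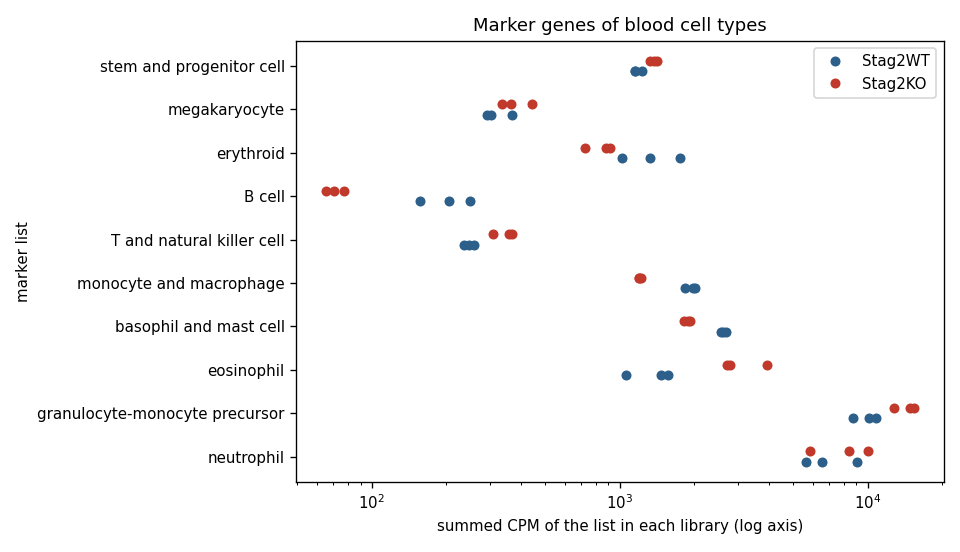
Summed CPM of each marker list in every library, on a log axis, with Stag2WT in blue and Stag2KO in red. Eosinophil and precursor sums are higher in all 3 Stag2KO libraries, as are those of stem and progenitor and of T and natural killer cells, those of monocytes and macrophages, basophils and mast cells, B cells and erythroid cells lower, and the neutrophil and megakaryocyte sums overlap. Most of the T and natural killer cell sum is Nkg7, while the T cell genes Cd3e, Cd3g and Cd8a are lower in Stag2KO. Prss34 and Mcpt8 make up most of the basophil and mast cell sum.

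The genes whose profile over the 6 libraries was nearest to each serpin were sought among 9932 genes whose mean reached 5 CPM, by the root mean square difference of log2(CPM + 0.5) after each gene was centred on its mean. This distance includes the genotype difference by which the serpins were chosen, so it is a description. Serpinb2 was nearest to Alox12e, a lipoxygenase gene (0.17), and to the eosinophil ribonuclease genes Ear6 (0.23) and Ear2 (0.24), where its own spread was 1.33. Serpinb8 was nearest to the eosinophil granule gene Prg3 (0.15), the neutrophil granule gene Camp (0.17) and Clec4a2 (0.19), with an own spread of 0.50.

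Serpinb6a was nearest to Tmem65 (0.03) and the mitochondrial genes mt-Nd2 (0.04) and mt-Nd4 (0.05), whose highest value was likewise in Stag2WT replicate 1. Serpinb1a was nearest to Atp6v0c (0.03), Mknk2 (0.05) and Aprt (0.05), and Serpinb6b to Dlg4 (0.03), Fam64a (0.04) and Fbxo21 (0.04). Serpinb9 was nearest to Zfp599 (0.03), Nln (0.04) and Spata7 (0.05). Serpina3g was nearest to Utrn, Zfp382 and Pogk (each 0.08), and Serpina3f to Cyb561 (0.15), Trim68 (0.15) and Cd200r4 (0.16). The 8 serpins themselves were left out of this search.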

How the data were processed

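The authors deposited raw read counts per gene symbol for 6 libraries of lineage-depleted mouse bone marrow. The build mm9, the aligner STAR 2.4, the counter HTSeq 0.6.1 and DESeq2 are named, per the submitters' processing notes, without their settings. Neither library kit, annotation nor strandedness is stated for these samples, so reads of overlapping or antisense genes cannot be told apart. Counter rows that name no gene (no feature 8.81% to 12.8% of the table total, ambiguous 2.02% to 2.2%, aligned to several places 23.4% to 28.6%) were left out.

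Groups came from the genotype label, and replicate numbers, given in accession order, only name libraries. Counts were fitted in R 4.3.3 with edgeR 4.0.16 (TMM, filterByExpr, robust quasi-likelihood, genotype as the only term), with Benjamini-Hochberg adjustment over 15708 genes and a threshold of 0.05. SE is the fold change divided by the root of the F statistic. CPM uses TMM-scaled totals of the tested genes. The fit was also run on drawn counts with known changes in far fewer genes than were called here. Every gene there had the same spread beyond read counting, so that run does not vouch for the calls. Counting errors cover read counting alone. Alternatives were median-ratio size factors, 2 filters on low counts, DESeq2 1.42.0, limma-voom (limma 3.58.1), a fit without robust estimation and each library left out.

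The 8 genes, the gene lists and the rule for named genes were chosen with earlier results of these data known. The rule names the 8 genes, Stag2, other tested serpins averaging at least 1 CPM, called proteases and the one of highest mean CPM in each protease group, the 3 nearest profiles of each serpin and leading markers. Gzmb, Plau, Plaur, Plg, Furin, Gzma, Serpinb9b and some markers below the leading ones are given beside it. Adgre1 and Plgrkt were found under RefSeq synonyms. Sequences were aligned with Biopython 1.88, and a planned comparison of proteins was replaced by one of coding sequences.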

Additional observations from a re-analysis of the deposited data

How the results depend on the processing

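The fitted fold changes of all 8 serpins kept their sign under all 12 alternatives, from 2.46 to 2.99 (log2) for Serpinb2, -0.39 to -0.32 for Serpinb1a, 0.50 to 0.63 for Serpinb6b, 0.93 to 1.23 for Serpina3f, 0.36 to 0.64 for Serpina3g, 0.22 to 0.39 for Serpinb9, -0.55 to -0.13 for Serpinb6a and, in the 11 that tested it, 0.41 to 1.28 for Serpinb8. The median over the 8 genes ran from 0.43 to 0.59 and Stag2 from -0.91 to -0.84. DESeq2 called 4 of the 8 higher in place of 3, beside 12.2% of all genes with an adjusted p, and edgeR without Stag2KO replicate 1 also 4, beside 6.62%. Nothing is read from these counts. Leaving out 1 library gave 962 to 1256 genes called higher (1686 with all libraries) and 902 to 1311 lower (1647), 2 to 4 other serpins lower (5) and 1 to 5 proteases higher (6). With 5 CPM in at least 3 libraries, which tests fewer genes, 1 other serpin was called higher, and DESeq2 called 7 proteases lower; the cause of the second was not tested. Of the proteases not called, some changed sign when 1 library was left out. Gzma ran from -0.40 to 0.15 (0.07 without Stag2KO replicate 1, 0.15 without Stag2WT replicate 3), Prf1 from -0.31 to 0.16 (0.16 and 0.12 in the same fits), Plaur from -0.17 to 0.17 (0.17 without Stag2KO replicate 2, 0.03 without Stag2WT replicate 1) and Gzmm from -0.0025 (without Stag2KO replicate 3) to 0.30. The Ctsg call was also lost with median-ratio size factors (adjusted p = 0.0509), limma-voom (0.05) and no robust estimation (0.0592), and the Elane call with the last (0.0579). Read counting alone gives an error of 14.05% and 18.6% of the mean for Serpinb8, the gene with the fewest reads, and of 1.08% to 8.66% for the other seven. No paired analysis was possible because the labels give the groups no shared replicate numbers.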
